A study of Marmota monax with 203 samples.

Results

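TMPRSS2, the gene of transmembrane serine protease 2, was followed through every liver biopsy of a woodchuck study of interferon treatment. It is 1 of 17587 genes in the deposited count files and was listed in all 203 sequencing runs. The gene was chosen by its difference between wIFN-α and placebo biopsies during treatment, so its values in that contrast are given as a description with no test. Tests were kept for weeks without treatment, for changes over time outside the dosing period, for sex, for the order of the animals between weeks, and for other genes.

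The animals were adult woodchucks chronically infected with woodchuck hepatitis virus (WHV) since a neonatal inoculation, a relative of human hepatitis B virus, and both groups carried this infection. They received subcutaneous woodchuck IFN-α (wIFN-α) or vehicle (placebo) 3 times a week for 15 weeks, at 20 μg per animal at first and at 100 μg from the start of week 7. Liver RNA was sequenced in biopsies of weeks -3 (before treatment), 0 and 3 (20 μg), 7, 11 and 15 (100 μg), and 19 and 23 (follow-up without drug). The number of animals on wIFN-α and on placebo was 11 and 12 at weeks -3 and 0, 9 and 12 at weeks 3 and 7, 8 and 10 at week 11, 8 and 9 at week 15, 6 and 5 at week 19, and 6 and 9 at week 23. Biopsies on treatment were taken hours after a dose, so they hold the liver shortly after an injection and not between injections. Animal M1004, which the study set aside as probably clearing the virus by itself, was left out, which left 149 biopsies from both sexes with 12072840 to 84805845 reads on genes (median 28754894).

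TMPRSS2 encodes a type II transmembrane serine protease, an enzyme anchored in the plasma membrane by a segment near its amino terminus with its catalytic domain facing outwards. It is best known as an androgen-regulated gene of the prostate and as the airway protease that cleaves the surface proteins of influenza viruses and coronaviruses, which lets these viruses fuse with the cell. IFN-α acts through a receptor shared by the type I interferons and switches on interferon-stimulated genes (ISGs), among them MX1, a dynamin-like GTPase that blocks several RNA viruses, and OASL, a member of the oligoadenylate synthetase family. In the human genome TMPRSS2 lies on chromosome arm 21q close to MX1 and MX2.

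Without drug, TMPRSS2 was a scarcely expressed gene of the liver. Levels are in CPM, reads of the gene scaled to the size of the library, on a common normalization of all biopsies. Over the 104 biopsies taken before treatment, after treatment or on placebo, it ranged from 0.0557 to 2.64 CPM with a median of 1.11 CPM, which rested on 1 to 139 reads a biopsy. Over the 45 biopsies taken on wIFN-α it ranged from 1.01 to 484 CPM with a median of 73.1 CPM, on 28 to 21013 reads. Of these treated biopsies, 44 lay above the highest untreated one.

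Before treatment the wIFN-α animals had 0.284, 0.674 and 2.22 CPM (lowest, median and highest) and the placebo animals 0.0557, 0.996 and 1.88 CPM. At week 0, hours into treatment, the wIFN-α animals had 9.63, 38.0 and 169 CPM and the placebo animals 0.105, 0.783 and 1.41 CPM. The groups no longer overlapped at week 0, and the lowest treated animal lay 6.84-fold above the highest placebo animal. At week 3 the treated animals had 1.01, 43.5 and 338 CPM against 0.278, 1.03 and 1.54 CPM, and at week 7, on the raised dose, 19.2, 58.0 and 243 CPM against 0.435, 1.37 and 2.64 CPM. The groups overlapped at week 3 because of a single treated animal, F1013, and were again apart at week 7. At week 11 the levels were 57.9, 145 and 420 CPM on wIFN-α and 0.861, 1.63 and 2.26 CPM on placebo. At week 15 they were 65.6, 219 and 484 CPM on wIFN-α (mean 240 ± 150, SD, n = 8) and 0.198, 1.5 and 2.25 CPM on placebo (mean 1.37 ± 0.682, SD, n = 9). By then the lowest treated animal lay 29.1-fold above the highest placebo animal. After the last dose the levels were 0.616, 1.22 and 1.42 CPM at week 19 and 0.619, 1.04 and 1.90 CPM at week 23 in the wIFN-α group, against 0.679, 0.901 and 1.90 CPM and 0.524, 1.52 and 2.05 CPM on placebo.

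**Figure D1:**
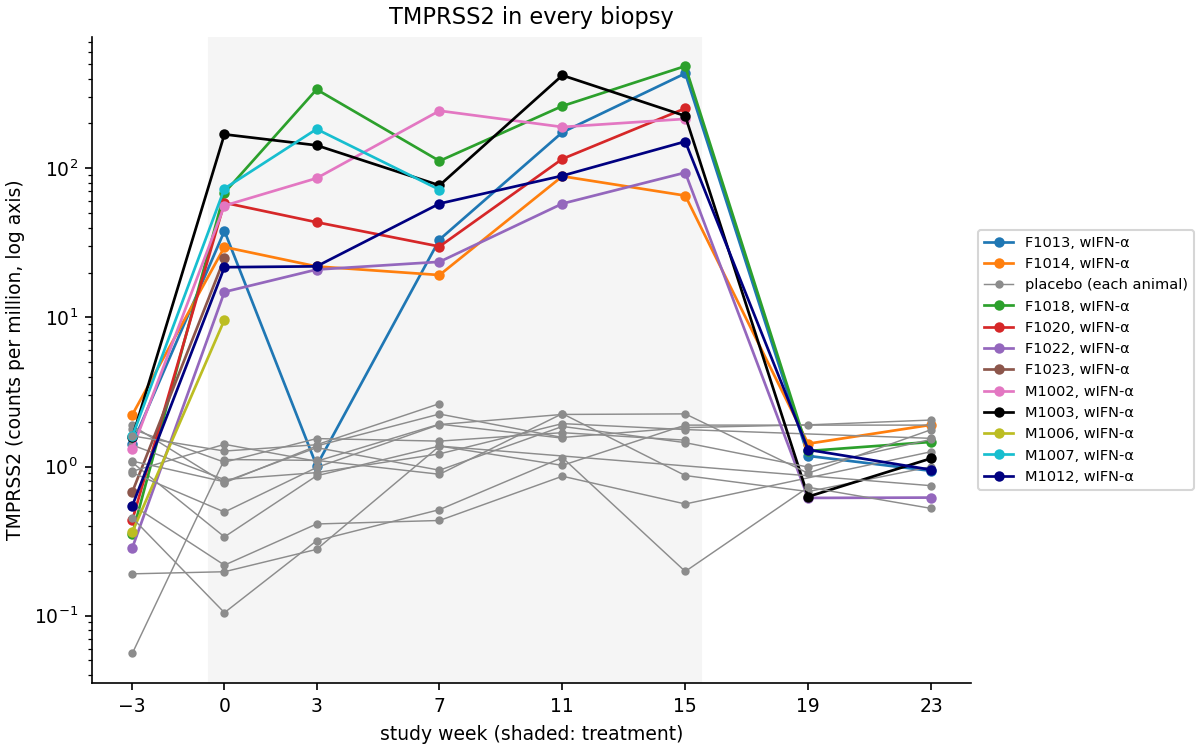
TMPRSS2 in each of the 149 biopsies, in CPM on a log axis, against the study week, with 1 coloured line for each of the 11 wIFN-α animals and grey lines for the placebo animals. Treated animals lie between 1.01 and 484 CPM in the shaded weeks and between 0.284 and 2.22 CPM outside them, and no placebo biopsy exceeds 2.64 CPM.

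In the fit of each week, the log2 difference between wIFN-α and placebo was 6.13 ± 0.50 (SE) at week 0, which is 69.8-fold, and 6.58 ± 0.70 at week 3, which is 95.7-fold. On the raised dose it was 5.73 ± 0.45 (52.9-fold) at week 7, then 6.74 ± 0.38 (107-fold) at week 11, and it reached 7.40 ± 0.49 (169-fold) at week 15. The ratio of the group medians was 48.5 at week 0, 42.0 at week 3, 42.3 at week 7, 89.2 at week 11 and 146 at week 15. Treated animals above every placebo animal numbered 11 of 11, 8 of 9, 9 of 9, 8 of 8 and 8 of 8 in these weeks. Of all genes tested, 4.56% at week 0, 0.387% at week 3, 8.1% at week 7, 7.45% at week 11 and 8.39% at week 15 had every treated animal above every placebo animal. A gene was called when its fold change exceeded 1.5 with an adjusted p below 0.05. In the order of the weeks, 10.3%, 7.24%, 11.4%, 12.6% and 13.4% of the genes tested were called higher on wIFN-α and 8.15%, 3.54%, 10.1%, 7.98% and 8.83% were called lower. Because the gene was selected on this contrast, nothing is read from these shares about TMPRSS2 itself. By the 7 lane numbers in the labels, the log2 difference between treated and placebo biopsies of weeks 0 to 15 ran from 4.27 to 7.02, against 6.17 over all lanes. Each number held 1 to 7 treated and 3 to 12 placebo biopsies, without the biopsies run under several numbers. The lowest value came from lane 2, whose 4 treated biopsies include F1013 at week 3. The same barcode recurs under 1 number for different biopsies, so a number does not mark a single batch.

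Ordered by their medians, the treated groups of weeks 15 and 11 came first and differed by 0.45 on the log2 scale, less than the SD between animals of 0.97. The step from week 11 down to week 7 was 1.42, larger than the SD of 1.07, whereas weeks 7, 3 and 0 did not differ beyond the spread of their animals. The next step, from treated week 0 to placebo week 11, was 4.63 against an SD of 0.90. The remaining untreated groups, from 1.63 CPM on placebo at week 11 to 0.674 CPM in the wIFN-α group at week -3, followed each other in steps within their SD.

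Within single animals the steps between successive biopsies were unequal. From week -3 to week 0 the level was higher in 11 of 11 treated animals, by a median of 43.1-fold (13.3-fold in F1014 to 195-fold in F1018). The value of F1018 rests on a pretreatment biopsy that held mostly muscle, with a summed level of 293 CPM over 10 hepatocyte genes and of 109535 CPM over 10 skeletal muscle genes. From week 0 to week 3 it was higher in 5 and lower in 4 of 9 animals. Across the dose step from week 3 to week 7 it was higher in 4 and lower in 5 of 9, with a median ratio of 0.876. The level moved again later, on the 100 μg dose. From week 7 to week 11 the level was higher in 7 of 8 animals with a median of 3.08-fold, and from week 11 to week 15 in 6 of 8 with a median of 1.65-fold. Week 15 exceeded week 0 in 8 of 8 animals, by a median of 5.21-fold (1.33-fold in M1003 to 11.4-fold in F1013). Placebo animals moved the same way to a lesser degree. There week 11 exceeded week 7 in 7 of 10 animals (median 1.37-fold) and week 15 exceeded week 0 in 8 of 9 (median 2.16-fold). Dose and time on treatment rose together in the treated animals, and their parts in the later difference cannot be told apart. The part of the change also seen without drug was not tested.

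The animals took different paths to these values. F1018 had 68.6, 338, 112, 261 and 484 CPM at weeks 0, 3, 7, 11 and 15, and was the highest animal at weeks 3 and 15. M1003 had 169, 143, 76.8, 420 and 224 CPM and led the group at weeks 0 and 11. F1022 stayed at the lower end, with 14.8, 20.9, 23.6, 57.9 and 93.6 CPM. F1014 had 29.6, 22.0, 19.2, 88.4 and 65.6 CPM, the lowest at weeks 7 and 15 although it had the highest level of the group before treatment, 2.22 CPM. F1013 had 38.0, 1.01, 33.3, 174 and 433 CPM, so that its week 3 biopsy lay within the placebo range and its week 15 biopsy was the second highest.

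In that week 3 biopsy of F1013 the interferon-stimulated genes MX1, OASL and MX2 stood within the placebo range too. MX1 was at 683 CPM, where the nearest other treated animal had 4877 CPM, OASL was at 3.25 CPM against 739 CPM, and MX2 had no read. Without F1013 the log2 difference of TMPRSS2 at week 3 was 6.75 ± 0.56. Hepatocyte genes summed to 121632 CPM in this biopsy, so liver RNA was abundant in it. The cause of its low values was not tested.

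When treatment stopped, the level was lower at week 19 than at week 15 in 6 of 6 animals, by a median log2 change of -7.87. At week 19 TMPRSS2 did not pass the test against placebo, with a log2 difference of 0.03 ± 0.34 (edgeR quasi-likelihood test, Benjamini-Hochberg adjusted p = 0.979; interval of ±2 SE from -0.64 to 0.70). The difference was -0.23 ± 0.31 at week 23 (edgeR, adjusted p = 0.696; -0.84 to 0.39) and -0.03 ± 0.43 at week -3 (edgeR, adjusted p = 1.00; -0.88 to 0.82). The share of genes called was 0% at each of weeks -3, 19 and 23 by edgeR, where 130, 1859 and 2416 genes had an unadjusted p under 0.05 and DESeq2 called 0, then 40 higher and 49 lower, then 9 higher and 16 lower. Within the wIFN-α group, week 19 against week -3 gave 0.15 ± 0.43 (edgeR, adjusted p = 0.827; -0.71 to 1.02), in a comparison that called 11.3% of genes, 975 higher and 757 lower. With the animal as a replicate block TMPRSS2 was at 0.30 ± 0.46 (edgeR, adjusted p = 0.726) and the genes called were 636 higher and 262 lower. Differences within these intervals were not detectable with this number of animals and reads.

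On placebo TMPRSS2 was higher at week 0 than at week -3 in 3 and lower in 9 of 12 animals. It was higher at week 7 than at week 0 in 11 of 12 animals, by a median of 2.04-fold, and MX1 in 12 of 12 by a median of 1.80-fold. From week 11 to week 15 it was higher in 3 and lower in 6 of 9 animals, and week 23 exceeded week -3 in 9 of 9, by a median of 1.78-fold. These steps were chosen after their values were seen and were not tested. The planned test of week 15 against week -3 on placebo gave 0.49 ± 0.42 (edgeR, adjusted p = 0.450; -0.35 to 1.32), where 9.54% of genes were called. F1016 at week -3, the lowest of all with 0.0557 CPM of TMPRSS2, had a muscle sum of 127507 CPM and a hepatocyte sum of 480 CPM, whose median over all biopsies was 100186 CPM. Leaving out the biopsies with many muscle reads gave 0.36 in place of 0.49 for the placebo change, -0.06 in place of -0.03 for the groups at week -3, and 0.07 in place of 0.15 for week 19 against week -3 on wIFN-α.

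The size of the TMPRSS2 difference resembled that of OASL more than that of MX1. OASL differed by 6.16 ± 0.45 at week 0 and by 7.33 ± 0.37 at week 15 (edgeR, adjusted p = 6.71e-11 and 1.71e-11). MX1 had 3320, 5130 and 6066 CPM on wIFN-α at week 0 and 5134, 7511 and 8509 CPM at week 15, against 515, 672 and 757 CPM on placebo at week 15, a log2 difference of 3.59 ± 0.16 and 3.47 ± 0.12 (edgeR, adjusted p = 1.33e-14 and 2.08e-13). From week 0 to week 7 TMPRSS2 was higher in 4 and lower in 5 of 9 animals (median ratio 0.982), whereas MX1 was higher in 9 of 9 (1.46) and OASL in 9 of 9 (1.63). From week 7 to week 11 TMPRSS2 was higher in 7 of 8 animals, MX1 in 2 of 8 with a median ratio of 0.909, and OASL in 4 of 8 with a median ratio of 1.01. From week 0 to week 15 the median ratio was 5.21 for TMPRSS2, 1.32 for MX1 and 1.51 for OASL on wIFN-α. On placebo these ratios were 2.16, 1.76 and 0.715. Per kilobase of gene model, the level of TMPRSS2 was a median of 0.882% of the MX1 level in treated animals at week 0 (0.409% to 3.97%), 1.01% at week 7, 3.15% at week 11 and 4.51% at week 15 (1.09% to 10.2%). On placebo this median lay between 0.203% and 0.328%. TMPRSS2 stayed a minor transcript beside MX1 at its highest.

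**Figure D2:**
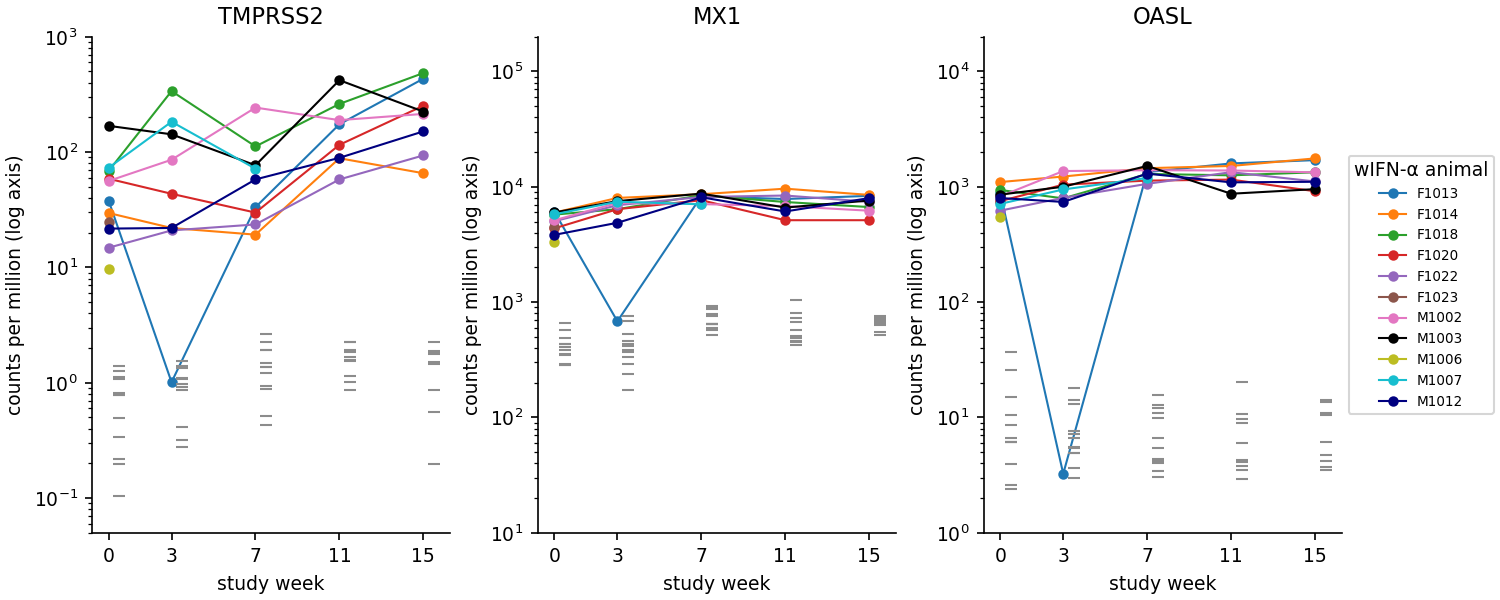
TMPRSS2, MX1 and OASL in CPM on log axes that span the same number of decades, with 1 line per wIFN-α animal and grey dashes for single placebo biopsies set slightly to the right of each week. Treated animals spread from 65.6 to 484 CPM for TMPRSS2 at week 15 and from 5134 to 8509 CPM for MX1, and the line that drops at week 3 is F1013.

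Treated animals differed from each other in TMPRSS2 far more than in most interferon-stimulated genes. At week 0 the SD of log2 CPM between the 11 treated animals was 1.18 for TMPRSS2, whereas 22 comparison ISGs had 0.220 to 0.740 with a median of 0.361. At weeks 7, 11 and 15 the SD of TMPRSS2 was 1.18, 0.938 and 0.998, against ISG medians of 0.176, 0.282 and 0.271 and widest ISGs of 0.747 (IFI6), 0.684 (OAS1) and 0.862 (IFI6). Of these comparators 21 of 21 tested were called higher at week 0 and 21 of 22 at week 15, with IFI6 the exception. Among all genes tested, 10.3% and 13.4% were called higher in these weeks. MX2, 1 of the 21, passed the count filter through its reads in treated biopsies. On wIFN-α IFI6 had medians of 0.268 CPM at week 7 and 0.255 CPM at week 15, so its SD rests on few reads. All 22 comparators were narrower than TMPRSS2 at weeks 0, 7, 11 and 15. At week 3, which includes F1013, TMPRSS2 had 2.48 and 19 of 21 were narrower. The highest treated animal exceeded the lowest by 17.5-fold at week 0, 334-fold at week 3, 12.6-fold at week 7, 7.25-fold at week 11 and 7.39-fold at week 15. Among all genes called higher with a mean of at least 1 CPM, 96.9%, 99.1%, 99.0%, 93.6% and 93.2% were narrower than TMPRSS2 in the 5 weeks. Separate runs of the same biopsy, which share the biopsy and its RNA, differed by a median of 1.04-fold and at most 1.13-fold in the 13 biopsies with at least 100 reads of TMPRSS2 in each run. The spread between biopsies taken from the same liver at the same time was not measured. TMPRSS2 also varied between animals without drug. On placebo its SD was 1.22, 0.862, 0.804, 0.476 and 1.13 at weeks 0, 3, 7, 11 and 15, on 3 to 139 reads. It was wider than on wIFN-α at weeks 0 and 15 and narrower at weeks 3, 7 and 11. In the wIFN-α group it was 1.06 before treatment. Whether treatment widened the spread was not tested, and the comparators were not compared without drug.

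**Figure D3:**
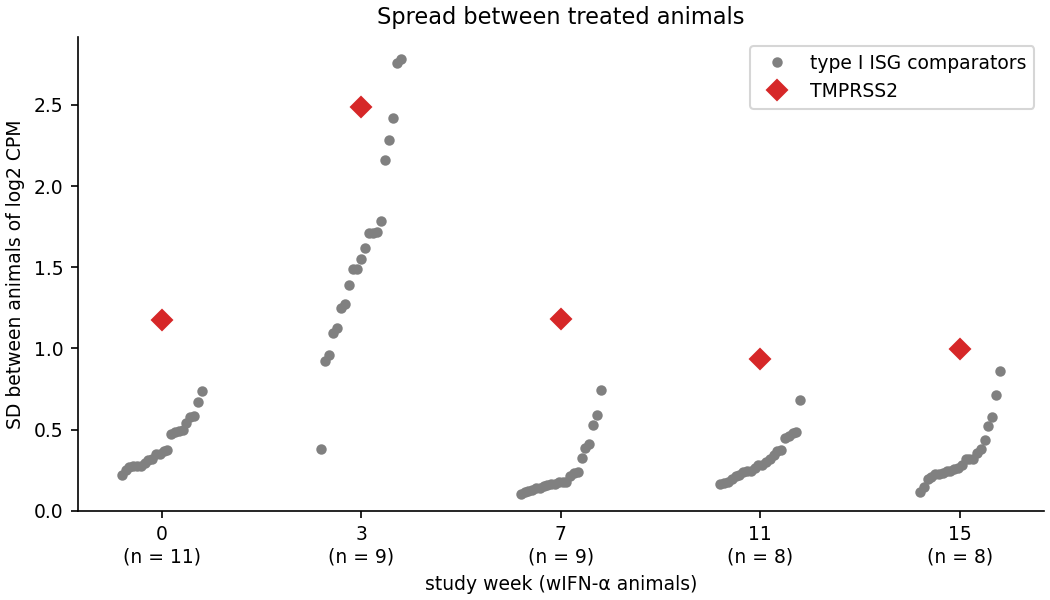
SD between wIFN-α animals of log2 CPM at each treatment week, for TMPRSS2 (red diamond) and for the type I ISG comparators (grey points in ascending order), with the number of animals under each week. TMPRSS2 lies above all 22 comparators at weeks 0, 7, 11 and 15, and above 19 of 21 at week 3.

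Whether animals with a high level at one week also had a high level at another was tested in 10 pairs of treatment weeks with 8 or 9 animals each. Between weeks 0 and 11 the levels correlated with Pearson's r = 0.930 (exact permutation p = 0.00179, adjusted over the 10 pairs p = 0.0179) and Spearman's rho = 0.905 (exact permutation p = 0.00456, adjusted p = 0.0456). Without M1003 and F1022, the animals farthest from the median at week 0, r was 0.771. No other pair passed after adjustment. Weeks 11 and 15 gave r = 0.679 (exact permutation p = 0.0622, adjusted p = 0.225) and rho = 0.714 (exact permutation p = 0.0576, adjusted p = 0.0960). Over the 10 pairs r ran from 0.0691 to 0.930, and rho was positive in 10 of 10, from 0.405 to 0.905. Leaving out the 2 farthest animals moved r to between 0.451 and 0.960.

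**Figure D4:**
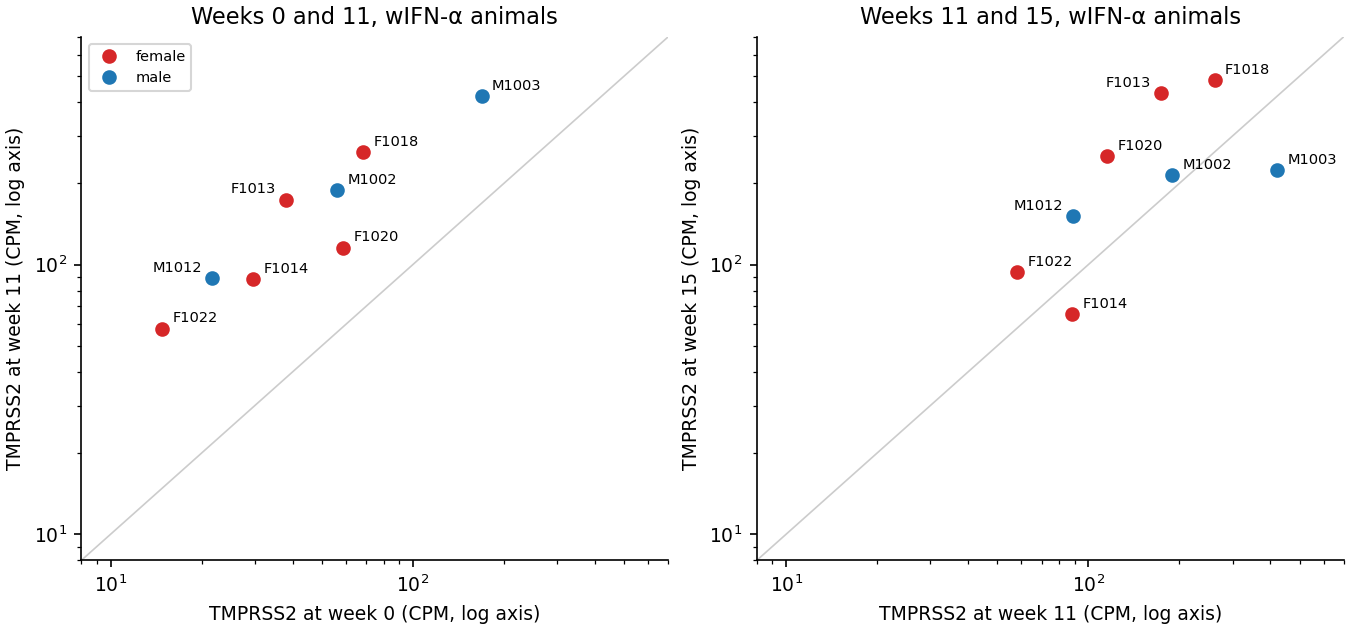
TMPRSS2 of each wIFN-α animal (n = 8) at week 11 against week 0 on the left and at week 15 against week 11 on the right, in CPM on log axes, with red points for females, blue points for males and a grey line of equal levels. All 8 animals lie above the line on the left (r = 0.930), and 6 of 8 on the right (r = 0.679).

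Sex was tested because TMPRSS2 is androgen-regulated in the prostate. At week -3 males differed from females by -0.18 ± 0.43 on the log2 scale (edgeR with treatment group as a covariate, adjusted p = 0.893; -1.05 to 0.69), and 0.0668% of genes were called. On wIFN-α at week 0 the 5 males had 9.63, 56.2 and 169 CPM and the 6 females 14.8, 33.8 and 68.6 CPM, so the sexes overlapped. In later treatment weeks the male and female medians were 114 and 22.0 CPM at week 3, 74.3 and 29.9 CPM at week 7, 189 and 116 CPM at week 11, and 214 and 252 CPM at week 15, with 3 or 4 males and 5 females and no test. The log2 difference at week 0 was 0.77 ± 0.61 (edgeR, adjusted p = 0.989; -0.46 to 1.99), with 0.0606% of genes called. It rested largely on M1003, without which it was 0.03. A difference of severalfold between the sexes lies inside this interval.

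Of 18 genes listed as type II transmembrane serine proteases or named TMPRSS, 12 were listed in the files and 5 to 7 had enough reads to be tested in a given treatment week. ST14 (matriptase, an epithelial membrane protease) was the 1 gene among them called higher, and it was called in each of the 5 weeks, while none was called lower. Over all genes tested, 7.24% to 13.4% were called higher and 3.54% to 10.1% lower in these weeks. With 5 to 7 genes tested, nothing is read from this count about the family. It had 5.81, 8.13 and 16.5 CPM on wIFN-α at week 0 against 2.60, 4.26 and 7.16 CPM on placebo, a log2 difference of 1.03 ± 0.18 (edgeR, adjusted p = 9.66e-05). At week 15 it differed by 1.04 ± 0.19 (edgeR, adjusted p = 0.000314). HPN (hepsin), a protease that hepatocytes express abundantly, differed by 0.11 ± 0.12 at week 0 and by -0.02 ± 0.13 at week 15. TMPRSS6 (matriptase-2), which restrains hepcidin in hepatocytes, differed by -0.44 ± 0.16 at week 15 (edgeR, adjusted p = 0.0292), under the fold required for a call. TMPRSS3, TMPRSS11B, TMPRSS11BNL and TMPRSS12 were not called in any week they were tested, and with HPN and TMPRSS6 their log2 differences ran from -0.44 to 0.49. The list's median was 0.28 at week 0 and -0.02 at week 15, against -0.01 and -0.01 over all genes tested. Assigning names by similarity to human, mouse or rat transcripts leaves reads shared with related proteases uncertain for all of them.

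The other members had few reads. Over the 149 biopsies CORIN had 748 reads, TMPRSS13 had 1950, TMPRSS7 had 247, TMPRSS4 had 186 and TMPRSS11F had 21, and they were below the count filter in most weeks. With the filter removed, 18%, 10.1%, 20.5%, 19.7% and 21.2% of all genes were called in the 5 treatment weeks. TMPRSS7 was then called higher at weeks 0, 7, 11 and 15. At week 11 it had 3 to 16 reads in treated and 0 to 1 in placebo biopsies, and at week 15 the log2 difference was 3.79 ± 0.71 (edgeR, adjusted p = 0.000406), a value that depends on how counts near 0 are handled. TMPRSS13 was called lower at weeks 0, 11 and 15 but higher at week 3, and TMPRSS4 lower at week 0 and higher at week 3. These reads sat in few biopsies. Of the 1950 reads of TMPRSS13, 1458 came from the 9 biopsies with at least 40 reads of it, 8 of them from placebo animals and 1 from treated animal M1012 at week 3. The same 9 biopsies had 462 to 3487 CPM of KRT1, a keratin of the outer skin, whose median in the other biopsies was 0.456 CPM. The cut at 40 reads is not a clean split, since M1009 at week 0 had 429 CPM of KRT1 with 27 reads of TMPRSS13. KRT1 was looked up after the TMPRSS13 values were seen. In the biopsy with the most KRT1, M1012 at week 3, TMPRSS2 was at 22.0 CPM, near the low end of the treated range of that week. Over the treated biopsies the rank correlation of TMPRSS2 with KRT1 was 0.14.

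**Figure D5:**
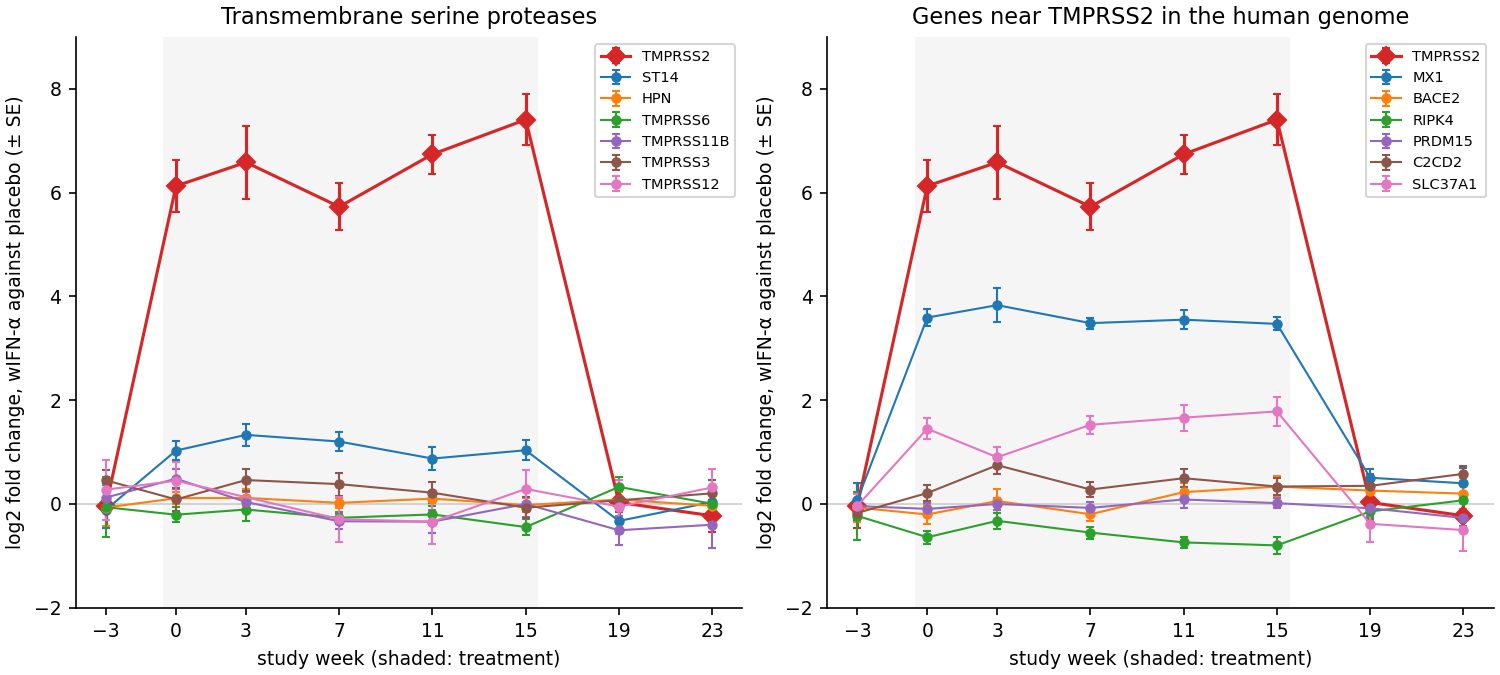
Log2 fold change of wIFN-α against placebo with its SE at each study week, for TMPRSS2 (red) beside 6 other proteases on the left and beside 6 genes that lie near it in the human genome on the right, with treatment weeks shaded. TMPRSS2 runs from 5.73 to 7.40 during treatment, ST14 from 0.88 to 1.33 and MX1 from 3.47 to 3.83, while RIPK4 lies below 0 in these weeks.

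Of 18 genes near TMPRSS2 in the human genome, 15 were listed in the files and 11 or 12 were tested in a given treatment week. Calls went in both directions at weeks 0, 7, 11 and 15 and to higher levels alone at week 3. Among all genes tested, 7.24% to 13.4% were called higher and 3.54% to 10.1% lower in these weeks. In the RefSeq annotation of the woodchuck genome, the protein-coding neighbours of Tmprss2 with a gene name are Fam3b and Bace2 on one side and Ripk4, Prdm15 and C2cd2 on the other, with unnamed genes between. The library kit did not keep the strand, so reads of genes that overlap TMPRSS2 could not be told apart from its own. MX1 was called higher in all 5 treatment weeks. MX2, a nuclear antiviral relative of MX1, had 55 to 286 reads on wIFN-α at week 0 and 317 to 1831 at week 15, where placebo biopsies had 0 to 3. It passed the count filter through its reads in treated biopsies, so nothing is read from its calls at weeks 0, 7, 11 and 15. SLC37A1, a sugar phosphate transporter, was called higher in all 5 weeks, at 1.45 ± 0.20 at week 0 and 1.78 ± 0.27 at week 15 (edgeR, adjusted p = 3.38e-06 and 4.44e-05). RIPK4, a kinase of epithelial differentiation and a direct neighbour of TMPRSS2, was called lower at weeks 0, 11 and 15. Its log2 difference was -0.64 ± 0.13 at week 0 and -0.80 ± 0.17 at week 15 (edgeR, adjusted p = 0.000413 and 0.000997). FAM3B, a secreted protein of the pancreatic islets, passed the count filter among the treatment weeks at week 7 alone, through its reads in treated biopsies, with 11 to 79 reads there and 2 to 9 on placebo. With the filter removed it was called higher in all 5 weeks, from 1.83 ± 0.42 at week 0 to 3.46 ± 0.53 at week 11 and 3.30 ± 0.57 at week 15, against few reads on placebo. C2CD2 was called higher at week 3 by 0.75 ± 0.18, and ABCG1, a cholesterol transporter, was called lower at week 7 by -0.98 ± 0.24. PRDM15, BACE2, RSPH1 and UMODL1 were not called in any week they were tested. UBASH3A was not called with the filter, and without it was called higher at week 11 by 0.74 ± 0.28 (edgeR, adjusted p = 0.0452). TFF3, tested without the filter only, was called higher at week 15 by 3.84 ± 1.19 (edgeR, adjusted p = 0.0171), on counts below the filter. Over the 45 treated biopsies the correlation with TMPRSS2 was 0.55 for MX1, 0.53 for MX2, 0.04 for FAM3B, -0.20 for RIPK4 and 0.06 for SLC37A1. For MX1 and MX2 it was 0.31 and 0.39 without the week 3 biopsy of F1013. These correlations are descriptions over biopsies that share animals.

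The 6 serine protease inhibitors tested had log2 differences of -0.48 to 0.76 during treatment, and none was called by edgeR. Over all genes tested, 7.24% to 13.4% were called higher and 3.54% to 10.1% lower in these weeks. SPINT2 (hepatocyte growth factor activator inhibitor 2, which blocks several membrane serine proteases) had the smallest p, with 0.40 ± 0.08 at week 0 (edgeR, adjusted p = 0.000489), 1.32-fold and thus under the fold required. Of 7 substrates and viral entry proteins tested, SCNN1A, a subunit of the epithelial sodium channel, was called lower at week 0 by -1.17 ± 0.31 (edgeR, adjusted p = 0.00482) but was at 0.11 ± 0.20 at week 15. DPP4, a membrane peptidase and coronavirus receptor, was called higher at weeks 11 and 15, by 0.82 ± 0.21 at week 15 (edgeR, adjusted p = 0.0041). The median of this list was -0.15 at week 0 and 0.11 at week 15.

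Of other genes known to respond to androgens, 3 were tested. FKBP5, a chaperone also driven by glucocorticoids, and SLC45A3 (prostein) were called higher at week 0, by 0.73 ± 0.23 and 0.87 ± 0.25 (edgeR, adjusted p = 0.0153 and 0.00791). HPGD, a prostaglandin dehydrogenase, was called lower at weeks 7 and 15, by -1.30 ± 0.28 at week 15 (edgeR, adjusted p = 0.00125).

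Over all 149 biopsies and 13916 genes, the 10 genes with the highest Pearson correlation of log2(CPM + 1) were RSAD2 (0.953), GTF2B (0.949), IFIT1 (0.948), FBXO33 (0.948), DDX58 (0.947), LOC100129473 (0.946), TRAFD1 (0.946), GBP2 (0.945), CMPK2 (0.944) and PML (0.944). RSAD2 (viperin), IFIT1, DDX58 (the RNA sensor RIG-I), CMPK2, GBP2 and PML are classical ISGs, and the ISG comparators had 0.754 to 0.953. The gap between treated and untreated biopsies, on which TMPRSS2 was chosen, enters all these values. A gene strongly raised on wIFN-α therefore ranks high, and nothing is read from this ranking. Within the 45 treated biopsies the leading genes were LOC100507367 (0.765), GTF2B (0.749), NAMPT (0.743), GPHA2 (0.739), HIATL1 (0.738), KIAA0317 (0.736), PSRC1 (0.733), SMG9 (0.732), MFSD11 (0.730) and FCHSD2 (0.729). GTF2B, the general transcription factor TFIIB, was in both sets. The 21 ISG comparators had 0.0199 to 0.646 with a median of 0.490 there, and -0.535 to 0.499 with a median of 0.130 without F1013 at week 3. Without that biopsy 3 of the 10 leading genes of the treated biopsies remained among the 10. The points share animals, and the correlations are descriptions over biopsies.

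Hepatocyte genes were abundant in every treated biopsy, with summed levels of 65518 to 158492 CPM over 10 genes against 41388 to 155545 CPM on placebo in the same weeks. Sums for other cell types moved to a different degree. Of the 10 T and NK cell genes, 2 were called higher at week 0 (CD3E and GZMA) and 9 at week 15 (all but CD4). These genes summed to 49.7 to 259 CPM (median 119) in treated and 45.7 to 122 CPM (median 75.3) in placebo biopsies, and 10 bile duct genes to a median of 204 against 128 CPM. Of the bile duct genes EPCAM and CLDN4 were called higher at week 0 and SOX9 at week 15. Of 10 macrophage genes CD68 was called higher at week 0, and C1QA, C1QB, C1QC and TIMD4 higher and CD163 lower at week 15. No hepatocyte gene was called at week 0, and FGB was called higher at week 15. Over the treated biopsies TMPRSS2 correlated with the T and NK cell sum at 0.43 and with the bile duct sum at 0.24. The correlation was 0.47 with the sum of the 4 pancreas genes in the files, 0.37 with the macrophage, 0.36 with the B and plasma cell and 0.33 with the neutrophil sum. It was -0.37 with the erythrocyte, -0.16 with the hepatocyte, -0.01 with the muscle and 0.09 with the endothelium sum. In bulk tissue more cells of a type and more RNA per cell cannot be told apart, and the part of cell composition in the TMPRSS2 levels was not tested. F1023 at week 0 had a muscle sum of 72000 CPM and 24.9 CPM of TMPRSS2, and F1018 at week 3 had 22648 CPM and 338 CPM.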

How the data were processed

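The labels put each biopsy in its group, week, sex and animal, and study weeks were taken as the label's week less 1. The authors made poly(A) libraries without strand information, mapped reads with Bowtie2 to their own assembled woodchuck transcriptome and counted with SAMtools, and gene names follow similarity to human, mouse or rat transcripts. The deposited values used are expected counts per gene, not normalized, of which 118 of 3368022 nonzero entries were fractions that were rounded. The authors also deposited RPKM values, used here for gene lengths alone, with TMPRSS2 at 0.71 of the length of MX1.

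Runs of a biopsy were summed. Each comparison was fitted across all genes past the count filter with edgeR 4.0.16 in R 4.3.3 (TMM normalization, quasi-likelihood test, Benjamini-Hochberg adjustment), and the script was tested on simulated counts. SEs follow from the fold change and its F statistic. CPM levels come from 1 TMM normalization of all biopsies. Levels rest on animals as replicates, and low levels on few reads. The same animal gave the biopsies of different weeks, so weeks were paired by design, and deviations from group means correlated at a median of 0.360 in 6 same-animal pairs (4 above 0.1) and -0.032 in other pairs for week 19 against week -3 on wIFN-α. On placebo the median was 0.189 in 9 same-animal pairs. Alternatives were DESeq2 1.42.0, RLE normalization, no filter, the deepest run, M1004 included, sex as a covariate, muscle-rich biopsies left out, 1 fit of all weeks, a replicate block and animals left out in turn. Correlations used scipy 1.17.1.

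The gene, the gene lists and the tests were chosen with earlier results of these data known. Genes named are TMPRSS2, the proteases, the neighbours, listed genes called at week 0 or 15, and the 10 most correlated genes in each set with a mean of at least 1 CPM. KRT1 and the genes named at other weeks were added after their values were seen.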

Additional observations from a re-analysis of the deposited data

Results flagged for a closer look

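The week 3 biopsy of the wIFN-α animal F1013 stood apart from the other 8 treated animals of that week in 3 genes, with TMPRSS2 at 1.01 CPM, MX1 at 683 CPM and OASL at 3.25 CPM. The gap to the nearest animal exceeded Dixon's 95% critical value in these 3 of 30 group and gene combinations examined, where chance gives about 1 in 20, and the 3 genes share the biopsy.

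TMPRSS2 also stood above the highest untreated biopsy (2.64 CPM) in wIFN-α biopsies outside the comparisons. Animal M1004 had 31.7 CPM at week 0, 38.4 CPM at week 3, 20.7 CPM at week 7, 91.1 CPM at week 11 and 167 CPM at week 15. A biopsy of M1006 at an unscheduled week during treatment had 44.8 CPM, and the one taken when M1007 died had 115 CPM.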

How the results depend on the processing

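Of 188 values recomputed under alternatives, 171 kept their direction and side of the threshold. Many of the 188 were the TMPRSS2 treatment difference at weeks 0 to 15, on which the gene was chosen. At 5.24 to 7.52 these could hardly change direction or side, so the count says little about the other results. The treatment difference of TMPRSS2 ran from 5.97 to 6.13 at week 0, 5.93 to 6.61 at week 3, 5.31 to 5.74 at week 7, 6.37 to 6.79 at week 11 and 7.23 to 7.42 at week 15, and with single animals left out from 5.75 to 6.24, 6.01 to 6.75, 5.24 to 5.85, 6.41 to 6.87 and 7.18 to 7.52. At week 19 the difference, near 0, turned to -0.053 with sex as a covariate and ran from -0.090 to 0.38 with single animals left out. At week 23 it ran from -0.42 to -0.10. No call of TMPRSS2 changed with the replicate block, which gave 5.97 for the change from week -3 to week 0 and 0.48 ± 0.33 for placebo week 15 against week -3. Without the count filter 4, 3, 2, 3 and 3 proteases other than TMPRSS2 were called at weeks 0, 3, 7, 11 and 15, in place of 1 each, since genes of few reads entered. With a fold change above 2 required, 0 were called at week 11, where ST14 was at 1.83-fold. With Spearman in place of Pearson, 3 of the 10 most similar genes over all biopsies and 5 over treated biopsies were shared, and 3 over treated biopsies without F1013 at week 3, an alternative chosen after seeing the data, as were the single animals left out for sex at week 0 and the muscle-rich biopsies for sex at week -3. The untreated level rested on 1 to 139 reads, which limits what can be said of it.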

Other observations

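Some biopsies entered no comparison, because of their time or because they came from M1004, and their TMPRSS2 levels are given as values. The wIFN-α animal M1002 had 2.14 CPM in its biopsy after the last scheduled week. M1004 had 1.2 CPM at week -3 and 1.71 CPM at week 19. Of the wIFN-α animals that died, F1020 had 0.571 CPM, with MX1 at 243 CPM and OASL at 23.9 CPM, and F1023 had 2.57 CPM, with MX1 at 1433 CPM and OASL at 244 CPM. The placebo animals M1010 and F1017, biopsied at euthanasia, had 0.653 and 0.917 CPM, and F1024, which died, had 1.61 CPM.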
